A study of Mus musculus with 16 samples.

Results

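The LPS response of WT peritoneal macrophages (PMs) was described from input RNA, the part of the fragmented RNA that was sequenced without m6A capture. PMs from WT mice of the C57BL/6 background, littermates of *Adap*-/- mice, were washed from the peritoneal cavity 3 days after an injection of 3% thioglycolate and plated, and were then either mock-treated or given LPS at 1 μg/ml for 6 h. Both groups therefore share the thioglycolate elicitation and the culture, and differ in LPS. Each group had 2 replicates, and no source used here states that these came from separate animals, so p-values measure the spread between these libraries, which may be technical. The same design in *Adap*-/- PMs, which lack the adaptor protein encoded by *Fyb1*, and the m6A-captured (IP) libraries of the same RNA are used only for comparison. The genes were those with at least 1 m6A peak in the deposited table. Reads of the 4 WT input libraries, out of 16 libraries in all, were summed over the distinct peaks of each of the 4943 genes, and 4742 of them passed the filter on low counts and were tested. Genes without an m6A peak could not be described, and *Mettl3*, a subunit of the m6A writer that the study follows, is one of them.

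LPS is the outer membrane glycolipid of Gram-negative bacteria. CD14 and the TLR4–MD-2 complex bind it at the macrophage surface, and 2 adaptor routes carry the signal. The MyD88 route releases NF-kB and AP-1 factors, which act on cytokine and chemokine genes. The TRIF route from endosomes acts through IRF3 on the type I interferon gene, and the secreted interferon then acts through STAT2 and IRF9 on interferon-stimulated genes (ISGs). Inhibitors such as IκBα, A20 and SOCS proteins are themselves encoded by target genes and limit the response.

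The DNA motifs named for these routes can be read in the sequence upstream of the genes. The stretches printed here are the 250 bases before the start site of 6 of the first 15 raised genes, shown because they hold a kB site, the motif bound by NF-kB and searched as its common consensus, or an interferon-stimulated response element (ISRE), searched as GAAA, NN and GAAA in a row (N is any base). They are RefSeq promoters of the build GRCm38.p6, each written 5′ to 3′ along the gene's strand, with kB sites or ISREs in capitals. The peaks lie on GRCm39, so these coordinates are not set against them. *Il6* encodes the cytokine IL-6, *Cxcl2* a neutrophil-attracting chemokine, *Ifit3b* an antiviral RNA-binding protein, and *Ifi205*, *Ifi208* and *Ifi213* are members of the PYHIN family of DNA sensors.
Il6, chr5:30012864-30013113, plus strand: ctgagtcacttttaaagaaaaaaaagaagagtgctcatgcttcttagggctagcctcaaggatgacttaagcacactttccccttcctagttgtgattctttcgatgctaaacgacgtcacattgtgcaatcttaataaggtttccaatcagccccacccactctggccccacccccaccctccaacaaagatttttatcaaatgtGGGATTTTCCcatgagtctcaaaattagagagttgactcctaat
Cxcl2, chr5:90903649-90903898, plus strand: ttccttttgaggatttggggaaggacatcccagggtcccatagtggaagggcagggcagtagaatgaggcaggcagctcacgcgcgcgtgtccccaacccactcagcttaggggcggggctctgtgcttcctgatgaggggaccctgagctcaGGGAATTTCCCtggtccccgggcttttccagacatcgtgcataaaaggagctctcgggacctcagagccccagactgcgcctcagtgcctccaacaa
Ifit3b, chr19:34607707-34607956, plus strand: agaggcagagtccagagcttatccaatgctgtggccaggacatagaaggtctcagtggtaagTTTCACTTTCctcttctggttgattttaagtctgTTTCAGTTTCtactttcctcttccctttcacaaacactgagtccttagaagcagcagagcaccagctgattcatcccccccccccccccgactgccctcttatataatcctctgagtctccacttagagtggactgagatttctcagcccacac
Ifi205, chr1:174031756-174032005, minus strand: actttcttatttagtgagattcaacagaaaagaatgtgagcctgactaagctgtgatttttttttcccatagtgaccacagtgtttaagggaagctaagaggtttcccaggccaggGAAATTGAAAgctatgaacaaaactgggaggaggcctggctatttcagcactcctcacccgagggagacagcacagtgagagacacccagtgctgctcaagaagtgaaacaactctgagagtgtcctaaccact
Ifi208, chr1:173673415-173673664, plus strand: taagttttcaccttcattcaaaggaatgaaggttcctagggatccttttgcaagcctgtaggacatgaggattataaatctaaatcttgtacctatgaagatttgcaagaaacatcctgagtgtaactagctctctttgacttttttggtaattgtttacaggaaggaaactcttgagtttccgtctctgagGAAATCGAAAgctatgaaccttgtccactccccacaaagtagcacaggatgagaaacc
Ifi213, chr1:173599273-173599522, minus strand: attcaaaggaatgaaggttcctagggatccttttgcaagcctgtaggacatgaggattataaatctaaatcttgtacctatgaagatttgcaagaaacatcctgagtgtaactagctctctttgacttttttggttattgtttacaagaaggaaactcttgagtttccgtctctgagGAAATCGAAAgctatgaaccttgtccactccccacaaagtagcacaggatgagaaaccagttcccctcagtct

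With −1 as the last base before the start site, the kB site of *Il6* began at −44, and *Cxcl2* held 2 overlapping matches, at −97 and −96. *Ifit3b* had ISREs at −188 and −154, *Ifi205* at −134, *Ifi208* at −58 and *Ifi213* at −73. The stretches of *Ifi208* and *Ifi213* had an identical run of 135 bases upstream of the ISRE, and that of *Ifi206*, not printed, had 182 bases in a row in common with *Ifi208*. Reads of such near copies can be split between them by the alignment, so their separate values are uncertain. Motifs were searched on both strands, and the letters of the kB site and the ISRE do not overlap in the printed stretches. Over windows of 300 bases that also take in 50 bases after the start site, an ISRE was found in 12.6% of 601 raised genes with a promoter entry, in 2.94% of 477 lowered genes and in 3.99% of all 27025 genes of the promoter table. Among all tested genes with an entry, 5.03% had an ISRE. A kB site was found in 18.0% of the raised and 12.6% of the lowered genes, against 13.4% of the tested genes and 9.55% of the table, so the lowered genes lay near the tested ones. TGANTCA, an AP-1 site, was found in 9.48% of the raised and 10.1% of the lowered genes, against 7.48% of the tested genes and 8.97% of the table. TATAAA was found in 14% of the raised and 9.01% of the lowered genes, against 8.86% of the tested genes and 15.7% of the table. Among list members with an entry, 26 of 49 ISGs had an ISRE and 5 of 6 chemokines a kB site. These shares describe letters in a window, and no binding was measured.

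The WT input libraries held between 2190219 and 4325961 reads on peaks, and the LPS libraries were the deeper ones. Values are given as TMM-normalized CPM, read counts scaled to the library total, where 1 read is worth between 0.256 and 0.361 CPM. The replicates were close. Over the tested genes, Spearman's rho was 0.990 between the LPS replicates and 0.987 between the mock replicates. It was 0.821 between the means of the 2 groups. Over genes above 10 CPM in both replicates, the median absolute log2 difference of replicates was 0.15 in either group. Of 10 macrophage markers, 9 had a peak and were tested, and their summed level was 10013 and 9767 CPM in the LPS libraries and 12330 and 13031 CPM in the mock libraries. *Cd68*, a macrophage endolysosomal glycoprotein, had 4086 and 4215 CPM with LPS and 4363 and 3965 CPM in mock PMs, and *Lyz2*, lysozyme, had 3266 and 2819 CPM against 4415 and 5344 CPM. Markers of B cells, NK cells, eosinophils and mast cells had no peak, and the T cell marker *Bcl11b* had 0 reads in all 4 libraries. The single neutrophil marker with a peak, *Csf3r*, which macrophages also express, and the dendritic cell marker *Ccr7* both rose, with log2 fold changes of 1.37 and 1.76. *Ccr7* summed to 27.7 and 56.0 CPM with LPS and 10.5 and 14 CPM without. Of 2 tested markers of recruited monocytes *Vcan* rose (5.27) and *Hp* stood at −0.73, and their summed level was 419 and 501 CPM with LPS and 441 and 451 CPM without. The fibroblast marker *Pdgfra* had 35.1 and 67.2 CPM against 27.4 and 43.1 CPM and was not called, nor were the 3 tested markers of resident peritoneal macrophages. The part of such cells in the results was not tested. In RNA of whole cultures, fewer cells of a type and less RNA per cell cannot be told apart.

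Of the 4742 tested genes, 876 (18.5%) rose and 702 (14.8%) fell after LPS, with an adjusted p below 0.05 in edgeR's quasi-likelihood test and a fold change above 2. Another 558 genes were higher and 670 lower with an adjusted p below 0.05 and a smaller fold. The median log2 fold change was 2.06 among the raised and −1.58 among the lowered genes, against −0.03 over all tested genes, and 245 genes rose more than 8-fold whereas 72 fell more than 8-fold. With genes at no more than 3 reads in both libraries of the lower group, 26 raised and 31 lowered, set to their lower bound, these medians were 2.04 and −1.57 and the counts 238 and 55. Both LPS libraries lay above both mock libraries in 1776 genes (37.5%) and below them in 1881 (39.7%). All 876 raised genes were among the first and 701 of the lowered genes among the second. At the edge of the fold threshold, 146 called genes had an absolute log2 fold change from 1 to 1.1, and 147 genes with an adjusted p below 0.05 had one from 0.9 to 1. Peaks annotated to more than 1 gene were the sole source for 193 of the raised and 159 of the lowered genes.

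The raised genes held most of the reads on peaks of the LPS libraries. Reads outside peaks and genes without a peak are not part of these shares. For the raised and lowered genes as groups, each peak counted once, also where it was shared with a gene not called. The 5 peaks of both a raised and a lowered gene counted for neither group. Shares of single genes are of reads summed over genes, where a shared peak counts for each of its genes. The 876 raised genes held 67.8% and 66.7% of the reads on peaks in the LPS libraries and 14.3% and 14.6% in the mock libraries. The 702 lowered genes held 1.80% and 1.84% with LPS and 13.7% and 13.8% without. *Rsad2*, which encodes the antiviral enzyme viperin, had the highest level after LPS, with 3.48% and 3.56% of the reads, against 0.0432% and 0.0528% in mock PMs. *Acod1*, the enzyme that makes itaconate, followed with 2.72% and 2.84%, against 0.271% and 0.301%, and *Tnf*, which encodes the cytokine TNF, had 2.60% and 2.06%, against 0.0429% in either mock library. In mock PMs the first place was held by *Gpnmb*, a lysosome-associated glycoprotein, with 5.38% and 4.79%, followed by *Ctsb* and *Ctsd*, which encode the lysosomal proteases cathepsin B and D. *Ctsb* had 3.63% and 3.69% in mock and 1.37% and 1.56% in LPS libraries. Shares depend on the number and length of a gene's peaks. They also depend on each other, and TMM scaling, with factors of 0.651 and 0.675 for LPS and 1.42 and 1.39 for mock libraries, set the middle of the genes level. When libraries were scaled by total reads alone, the median log2 fold change of all genes moved by −1.08, and 430 genes were called raised and 2631 lowered.

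**Figure D1:**
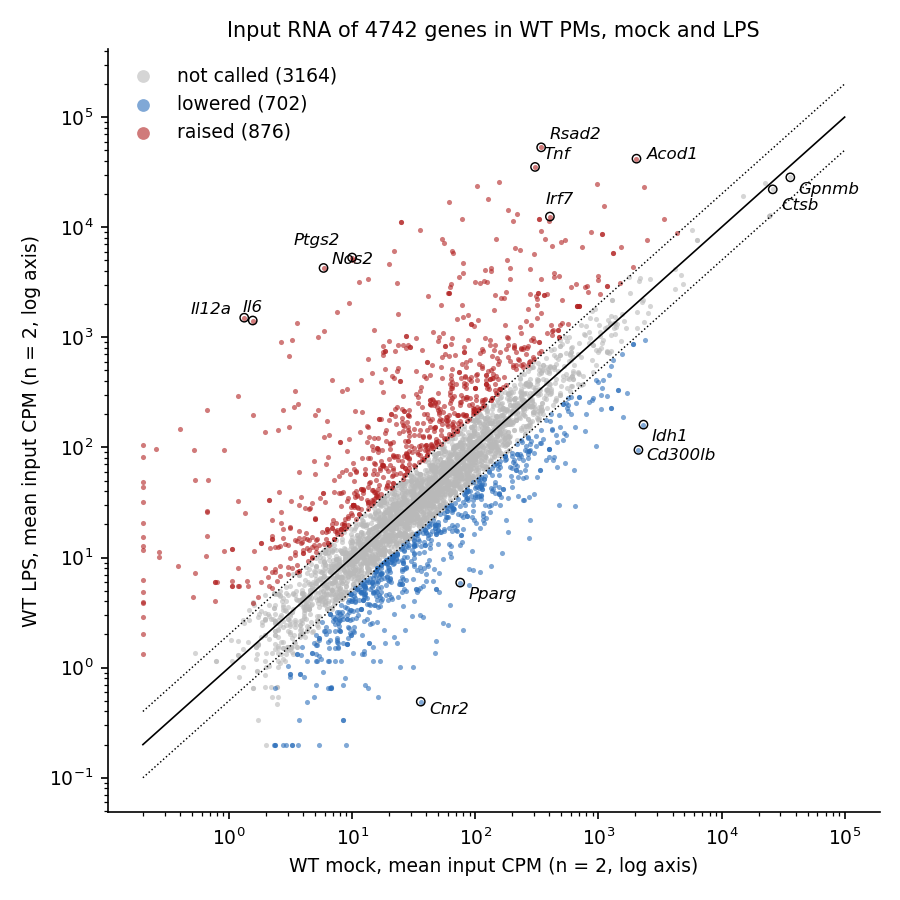
Each point is 1 of the 4742 tested genes, with its mean input CPM over 2 mock libraries on the x axis and over 2 LPS libraries on the y axis, both on log axes. Means below 0.2 CPM are drawn at 0.2. The solid line marks equal levels and the dotted lines 2-fold. The 876 raised genes reach from levels near 0 in mock PMs to the highest levels of all, where *Rsad2*, *Acod1* and *Tnf* stand, while *Gpnmb* and *Ctsb* lie close to the line.

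The largest rises with a measurable mock level were those of cytokine, enzyme and interferon-inducible genes. *Il12a* (ENSMUSG00000027776, chr3:68597977-68605880, GRCm39) encodes the p35 subunit of IL-12 and had 1799 and 1214 CPM in the LPS libraries and 0.767 and 1.89 CPM in the mock libraries. Its log2 fold change was 10.13 (SE 0.34, adjusted p = 2.97e-13). *Il6* (ENSMUSG00000025746, chr5:30218142-30224979) had 1758 and 1083 CPM with LPS and 2.30 and 0.808 CPM without, a log2 fold change of 9.79 (SE 0.33, adjusted p = 2.91e-13). The mock level of both rested on few reads, 9 and 3 for *Il6*. *Nos2* (ENSMUSG00000020826, chr11:78811613-78851080), the inducible nitric oxide synthase, had 3464 and 5063 CPM against 2.56 and 9.16 CPM, and a log2 fold change of 9.52 (SE 0.33, adjusted p = 3.79e-13). *Ptgs2* (chr1:149975782-149983978), the cyclooxygenase of the inflammatory prostaglandin pathway, had 5677 and 4928 CPM against 8.70 and 11.3 CPM, a log2 fold change of 9.05 (SE 0.23). Next in order were *Il1b* (log2 fold change 8.94), *Trim30c* (8.56), *Ifit3b* (8.43), *Ifi208* (8.31), *Ms4a4d* (8.16), *Ifi213* (8.14), *Ifi205* (8.12), *Cxcl2* (8.11), *Mx1* (8.07), *Ifi206* (7.98) and *Rnf225* (7.91). Their SEs ran from 0.16 to 0.34, so that the order of neighbours is uncertain. By the rule of choice, no LPS library of these 15 genes overlapped a mock library.

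**Figure D2:**
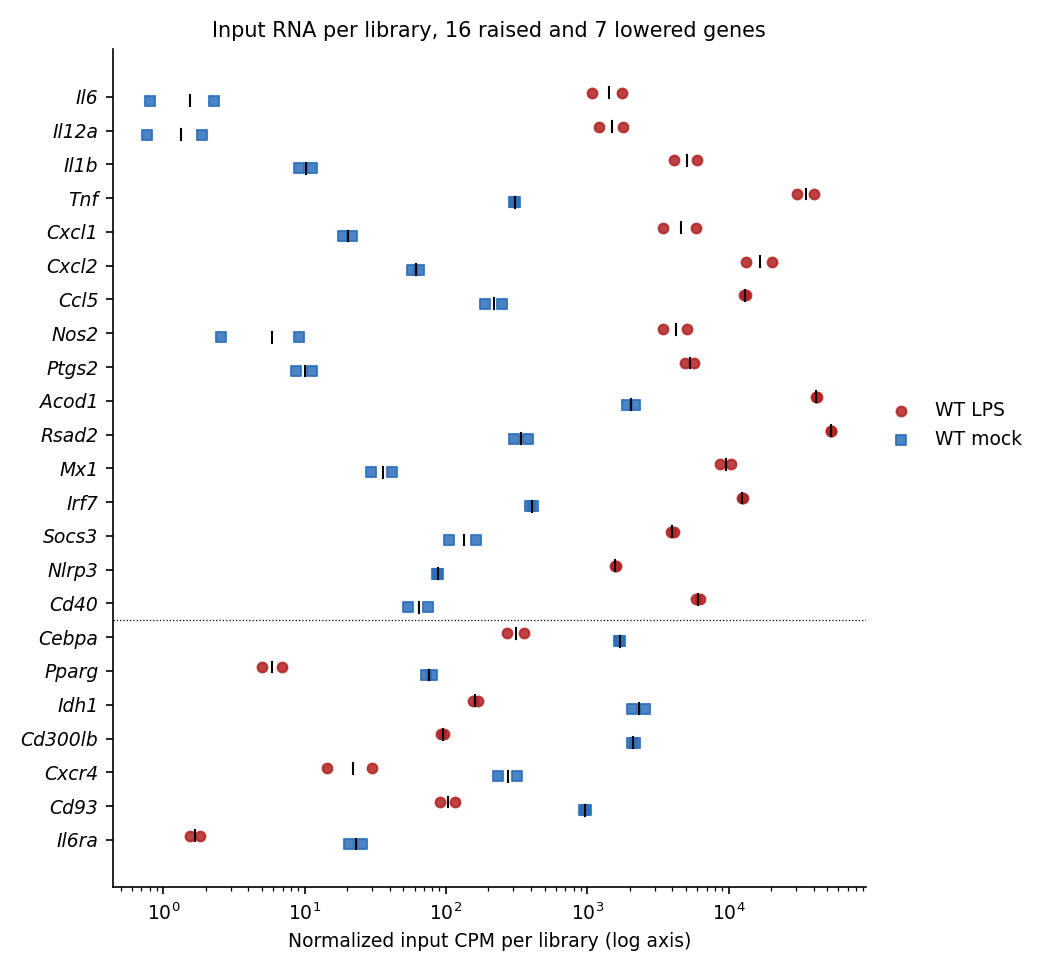
Input CPM of 16 raised and 7 lowered genes in each of the 2 LPS libraries (circles) and 2 mock libraries (squares), on a log axis, with the group mean as a tick. In every gene shown the 2 groups are apart by more than the distance between replicates.

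Of 16 tested genes for TLR4 recognition and its adaptors, 4 rose and 0 fell, and the list's median log2 fold change was 0.19. The raised share of 25.0% was near the 18.5% of all genes, and 14.8% of all genes were lowered. With upper-quartile scaling 3 were raised and 2 lowered, and 1 was lowered without WT LPS replicate 1 or without WT mock replicate 2. The receptor gene itself stayed below the fold threshold. *Tlr4* had 41.3 and 40.5 CPM with LPS and 53.2 and 51.7 CPM in mock PMs, a log2 fold change of −0.36 (SE 0.13, adjusted p = 0.0273). *Irak1*, a kinase of the MyD88 route, stood at −0.96 (SE 0.15, adjusted p = 2.92e-05), short of the fold threshold. The 4 that rose were *Cd14*, the LPS co-receptor, with 2346 and 1978 CPM against 509 and 512 CPM and a log2 fold change of 2.08 (SE 0.14), the ubiquitin ligase gene *Peli1* at 2.61, the inhibitory kinase homologue *Irak3* at 1.63, and *Tab2*, an adaptor of the kinase TAK1, at 1.17.

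Of 14 tested genes for NF-kB subunits, kinases and inhibitors 10 rose (71.4%, against 18.5% of all genes) and 0 fell, with a median log2 fold change of 2.12. The highest was *Nfkbiz*, which encodes the nuclear regulator IκBζ, with 780 and 741 CPM against 35.8 and 37.7 CPM (log2 fold change 4.37, SE 0.13, adjusted p = 6.98e-14). *Tnfaip3*, which encodes the deubiquitinase A20, had 3430 and 3637 CPM against 463 and 415 CPM (3.01, SE 0.12). The IκBα gene *Nfkbia* had a log2 fold change of 2.64 (SE 0.11). Among the subunits, *Nfkb2* stood at 2.63 (SE 0.26), *Nfkb1* at 2.15 (SE 0.10) and *Rel* at 1.99 (SE 0.16). *Otulin*, a deubiquitinase of linear chains, had −0.56 (SE 0.12) and was not called.

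Of 25 tested cytokine genes, 19 rose (76.0%, against 18.5% of all genes) and 4 fell (16%), and the median log2 fold change was 4.88. The lowered share was near the 14.8% of all genes, and 1 fell with peaks of 1 gene alone. With at least 10 reads asked of every library, 11 rose. *Il1b* had 5981 and 4127 CPM with LPS and 11.3 and 9.16 CPM in mock PMs, with 1 of its 2 peaks shared with another gene (log2 fold change 8.94, SE 0.30, adjusted p = 2.97e-13). *Tnf* (ENSMUSG00000024401, chr17:35418357-35420983) started from a higher mock level, 303 and 309 CPM, and reached 40000 and 30516 CPM (6.85, SE 0.22, adjusted p = 2.44e-13). In both genes LPS replicate 1 was above LPS replicate 2, as it was in *Il6* and *Il12a*. *Il12b*, the p40 subunit, had at most 3 reads in either mock library and 177 and 117 CPM with LPS, which is at least 187-fold higher, against a floor of 3 reads per library. *Tnfsf10*, which encodes TRAIL, was at least 124-fold higher, and *Klrk1*, the receptor NKG2D, at least 64.9-fold. *Tnfsf15* (log2 fold change 7.79, SE 0.23), *Edn1*, which encodes endothelin-1 (7.78, SE 0.20), the granulocyte growth factor gene *Csf3* (6.64, SE 0.30), *Il1a* (5.16, SE 0.20, all peaks shared) and *Il15* (4.88, SE 0.16) also rose. The gene of the IL-1 receptor antagonist, *Il1rn*, rose by less, with 2217 and 2492 CPM against 318 and 304 CPM (2.92, SE 0.12). Not every cytokine gene went up. *Vegfa*, an angiogenic factor, had 171 and 172 CPM with LPS and 409 and 407 CPM without (−1.25, SE 0.12, adjusted p = 1.91e-07), and *Il16*, on a shared peak, stood at −2.14 (SE 0.26). *Tgfb1*, at 0.22 (SE 0.09, adjusted p = 0.0552), did not pass the test.

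All 11 tested chemokine genes rose, with a median log2 fold change of 5.89, against 18.5% of all genes. The neutrophil-attracting CXC ligands were among the highest. *Cxcl2* had 20441 and 13220 CPM with LPS and 57.8 and 64.1 CPM in mock PMs (log2 fold change 8.11, SE 0.29, adjusted p = 7.41e-13), *Cxcl1* 5855 and 3440 CPM against 18.7 and 21.6 CPM (7.85, SE 0.31), and *Cxcl3* 1962 and 1424 CPM against 7.93 and 7.01 CPM (7.82, SE 0.26). The interferon-inducible T cell attractant *Cxcl10* had 11581 and 10878 CPM against 14.3 and 35.6 CPM (8.82, SE 0.29), on 2 peaks that are both annotated to *Art3* too. In the CC ligands, which attract monocytes and T cells, *Ccl3* had a log2 fold change of 6.29 (SE 0.19), *Ccl5* of 5.89 (SE 0.17), *Ccl7* of 5.56 (SE 0.19), *Ccl4* of 5.53 (SE 0.19) and *Ccl2* of 5.37 (SE 0.17, shared peak). *Ccl9* at 2.62 (SE 0.13) and *Cxcl16* at 1.74 (SE 0.10, shared peak) rose by less, and their mock levels were 26.1 and 25.3 CPM for *Ccl9* and 238 and 230 CPM for *Cxcl16*.

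Of 19 tested genes for nitric oxide, prostaglandin, itaconate and redox enzymes and their transporters and regulators, 11 rose (57.9%) and 2 fell (10.5%). Among all genes 18.5% rose and 14.8% fell. Beside *Nos2* and *Ptgs2*, described above, *Ch25h*, which makes 25-hydroxycholesterol, had 135 and 139 CPM against 1.79 and 2.16 CPM (log2 fold change 6.09, SE 0.22). *Slc7a2*, a transporter of arginine, the substrate of NOS2, had 2026 and 1937 CPM against 60.6 and 44.5 CPM (5.23, SE 0.17). *Acod1* (ENSMUSG00000022126, chr14:103284413-103294009) had 41743 and 42035 CPM against 1910 and 2169 CPM (4.36, SE 0.16, adjusted p = 6.62e-13), and *Ptges*, the prostaglandin E synthase gene, stood at 4.21 (SE 0.24). Of the 2 that fell, *Arg1*, the arginase that competes with NOS2 for arginine, had 30.1 and 40.5 CPM against 98.2 and 228 CPM (−2.22, SE 0.36, adjusted p = 5.82e-05). The mock replicates of *Arg1* lay further apart than the LPS replicates.

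All 61 tested ISGs rose, of 62 with a peak, against 18.5% of all genes, and their median log2 fold change was 4.74. The lowest was *Lgals3bp* (1.62, SE 0.16), which encodes a secreted galectin-binding glycoprotein and had the high mock level of 2915 and 2040 CPM. *Rsad2* (ENSMUSG00000020641, chr12:26492752-26506430) had 53536 and 52719 CPM with LPS and 305 and 380 CPM without (7.28, SE 0.18, adjusted p = 1.95e-14). *Mx1*, an antiviral GTPase gene, had 8720 and 10338 CPM against 29.7 and 41.5 CPM (8.07, SE 0.20), and its neighbour in the genome *Mx2* had at most 3 reads in either mock library and was at least 121-fold higher. *Ifi44* was at least 104-fold higher on the same terms. *Cmpk2*, a mitochondrial nucleotide kinase gene, had 23630 and 23802 CPM against 89.5 and 117 CPM (7.84, SE 0.19). The IFIT genes had log2 fold changes of 7.36 (SE 0.24) for *Ifit2* and 7.20 (SE 0.15) for *Ifit3*, while *Ifit3b* stood at 8.43 (SE 0.22) from a mock level of 2.30 and 2.96 CPM. The ubiquitin-like modifier gene *Isg15* had 7446 and 6967 CPM against 54.5 and 56.3 CPM (7.02, SE 0.14). In all 61 both LPS libraries lay above both mock libraries, as they did in 37.5% of all genes and in all 876 raised genes. Of the 61, 4 had under 10 reads in both mock libraries.

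Transcription factors of the interferon system rose in 6 of 9 tested genes (66.7%) and fell in 0, against 18.5% and 14.8% of all genes. *Irf7* (ENSMUSG00000025498, chr7:140842619-140846334), the IRF that amplifies type I interferon, had 12587 and 12395 CPM against 415 and 392 CPM (log2 fold change 4.95, SE 0.14, adjusted p = 4.76e-14). *Irf1* had 16100 and 14822 CPM against 850 and 1385 CPM (3.79, SE 0.19). *Stat2*, whose protein acts with IRF9 at ISREs, rose as well (3.64, SE 0.12), and so did *Irf8* (1.71, SE 0.20). *Irf3*, whose protein is activated by phosphorylation and not by new synthesis, had 28.3 and 19.5 CPM against 33.0 and 29.4 CPM (−0.37, SE 0.20, adjusted p = 0.125), and *Stat6*, the factor of the IL-4 response, had −0.84 (SE 0.11).

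Feedback regulators of signalling and mRNA rose in 12 of 24 tested genes and fell in 2. Among all genes 18.5% rose and 14.8% fell, so the list's raised share was higher and its lowered share smaller. *Socs1* and *Socs3*, inhibitors of JAK kinases, were the highest, with 767 and 611 CPM against 9.98 and 25.6 CPM for *Socs1* (log2 fold change 5.29, SE 0.24) and 3905 and 4100 CPM against 106 and 164 CPM for *Socs3* (4.89, SE 0.17, adjusted p = 6.62e-13). A further SOCS-box gene, *Cish*, stood at 3.98 (SE 0.42, both peaks shared). The MAP kinase phosphatase genes went both ways, with *Dusp16* at 1.99 (SE 0.15), *Dusp3* at −1.82 (SE 0.11) and *Dusp1*, which is known as an early LPS target, at −0.18 (SE 0.12, adjusted p = 0.217). *Atf3*, a repressor of TLR target genes, had high levels in both groups, 3412 and 3038 CPM with LPS and 2081 and 2209 CPM without (0.59, SE 0.11). *Spry1* (ENSMUSG00000037211, chr3:37694229-37698747), an inhibitor of receptor kinase signalling that the study follows, was near the limit of detection. It had 3.73 and 5.06 CPM with LPS and 1.02 and 0 CPM in mock PMs, a log2 fold change of 2.97 with a wide SE of 0.73 (adjusted p = 0.00234). *Fyb1*, the ADAP gene, had 349 and 377 CPM with LPS and 244 and 257 CPM without (0.54, SE 0.11, adjusted p = 5.52e-04) and stayed below the fold threshold.

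Early response and lineage factors rose in 11 of 26 tested genes and fell in 4, with a median log2 fold change of 0.92. These are 42.3% and 15.4%, against 18.5% and 14.8% of all genes, so the lowered share lay at that of all genes, and with upper-quartile scaling 6 were raised. *Ier3*, an NF-kB target with a role in survival, had a log2 fold change of 2.47 (SE 0.13), *Batf*, an AP-1 family factor, of 2.39 (SE 0.12) and *Junb* of 1.85 (SE 0.11). *Klf4* rose to 22.7 and 13.7 CPM from 8.44 and 8.62 CPM (1.11, SE 0.29, adjusted p = 0.00396), a call that was lost with upper-quartile scaling (0.82) and without WT LPS replicate 1 (0.69). The 4 that fell included *Cebpa*, a factor of myeloid identity. *Cebpa* had 356 and 269 CPM against 1682 and 1709 CPM (−2.44, SE 0.13, 2 of 3 peaks shared). *Jun* (−1.29, SE 0.10) and *Egr2* (−1.11, SE 0.12) fell by less, and *Egr2* was at −0.98, short of the fold threshold, without WT LPS replicate 2 or without WT mock replicate 1. Of the macrophage markers 2 fell, *Cebpa* among them, and 2 rose, *Fcgr1* and *Mertk*.

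Toll-like receptors other than TLR4, cytosolic sensors and inflammasome genes were raised in 12 of 17 tested genes (70.6%) and lowered in 2 (11.8%). Of all genes, 18.5% were raised and 14.8% lowered. The list also holds the protease gene *Casp1*, the adaptor gene *Pycard* and the IL-1 receptor gene *Il1r1*. *Tlr2*, the receptor of bacterial lipoproteins, had 3802 and 3834 CPM against 439 and 427 CPM (log2 fold change 3.14, SE 0.12), and *Tlr3*, the receptor of double-stranded RNA, 304 and 339 CPM against 18.4 and 17.0 CPM (4.18, SE 0.13). *Nlrp3*, the sensor of the inflammasome that processes IL-1β, had 1573 and 1594 CPM against 88.3 and 86.5 CPM (4.18, SE 0.13, adjusted p = 1.25e-13). *Mefv*, which encodes pyrin, stood at 3.42 (SE 0.12) and *Nod1* at 3.35 (SE 0.16). The inflammasome adaptor *Pycard* had 5.28 and 7.23 CPM against 15.3 and 23.7 CPM (−1.65, SE 0.32), and *Tlr13*, a receptor of bacterial ribosomal RNA, 948 and 931 CPM against 2339 and 2479 CPM (−1.36, SE 0.10).

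Surface receptors split. Of 21 tested scavenger, Fc and phagocytic receptor genes, 7 rose and 7 fell. This is 33.3% either way, against 18.5% raised and 14.8% lowered among all genes. *Clec4e*, which encodes the mycobacterial glycolipid receptor Mincle, had 24486 and 21493 CPM against 2586 and 2098 CPM (log2 fold change 3.30, SE 0.17), *Fcgr1*, the high-affinity IgG receptor, stood at 3.20 (SE 0.20) and *Olr1*, a receptor of oxidized LDL, at 2.26 (SE 0.29). *Cd93* had 91.0 and 116 CPM with LPS and 980 and 946 CPM without (−3.22, SE 0.12, adjusted p = 9.66e-13). *Clec7a*, the β-glucan receptor Dectin-1, stood at −1.62 (SE 0.11), and *Trem2*, a lipid receptor, at −1.49 (SE 0.13).

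G protein-coupled receptors and their regulators had 12 raised and 13 lowered genes of 36 tested. These are 33.3% and 36.1%, against 18.5% and 14.8% of all genes, and the median log2 fold change was −0.08. *Hcar2*, the receptor of niacin and β-hydroxybutyrate, had 931 and 753 CPM against 12.5 and 23.2 CPM (5.57, SE 0.20). *Adora2a*, the adenosine receptor that raises cAMP, stood at 3.45 (SE 0.11) and *Fpr1*, the receptor of formylated bacterial peptides, at 3.07 (SE 0.13). In the other direction *Cnr2*, the cannabinoid receptor of immune cells, had 0.621 and 0.361 CPM with LPS, at most 3 reads in either library, and 36.6 and 35.6 CPM in mock PMs, which is at least 35.8-fold lower. *Gpr160* was at least 8.92-fold lower, also with at most 3 reads in either LPS library. *Cxcr4*, the receptor of CXCL12, had 29.8 and 14.5 CPM against 318 and 234 CPM (−3.61, SE 0.22), *Rgs2*, a regulator of G protein signalling, stood at −3.01 (SE 0.14) and *S1pr1*, a receptor of sphingosine 1-phosphate, at −2.67 (SE 0.19). Among 26 growth factor and cytokine receptors 9 rose (34.6%) and 6 fell (23.1%), against 18.5% and 14.8% of all genes. *Il15ra*, which presents IL-15, had 529 and 494 CPM against 18.9 and 17.8 CPM (4.80, SE 0.12), and the hepatocyte growth factor receptor gene *Met* stood at 2.78 (SE 0.12). *Il6ra*, the receptor of IL-6, had 1.55 and 1.81 CPM with LPS and 25.6 and 20.7 CPM without (−3.77, SE 0.35), while *Insr* (−2.12, SE 0.45) and *Ifngr1*, the interferon-γ receptor gene (−1.59, SE 0.10), also fell.

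Antigen presentation and costimulation had 12 raised (60.0%) and 0 lowered genes of 20 tested, against 18.5% raised and 14.8% lowered among all genes. *Cd40*, the receptor of T cell help, had 6324 and 5873 CPM against 54.2 and 74.1 CPM (log2 fold change 6.57, SE 0.16, adjusted p = 1.95e-14). *Cd274*, which encodes the inhibitory ligand PD-L1, had 7391 and 7226 CPM against 453 and 536 CPM, with 2 of 3 peaks shared (3.88, SE 0.14). The peptide transporter gene *Tap1* stood at 3.78 (SE 0.13) and the T cell costimulator *Icosl* at 3.64 (SE 0.23).

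**Figure D3:**
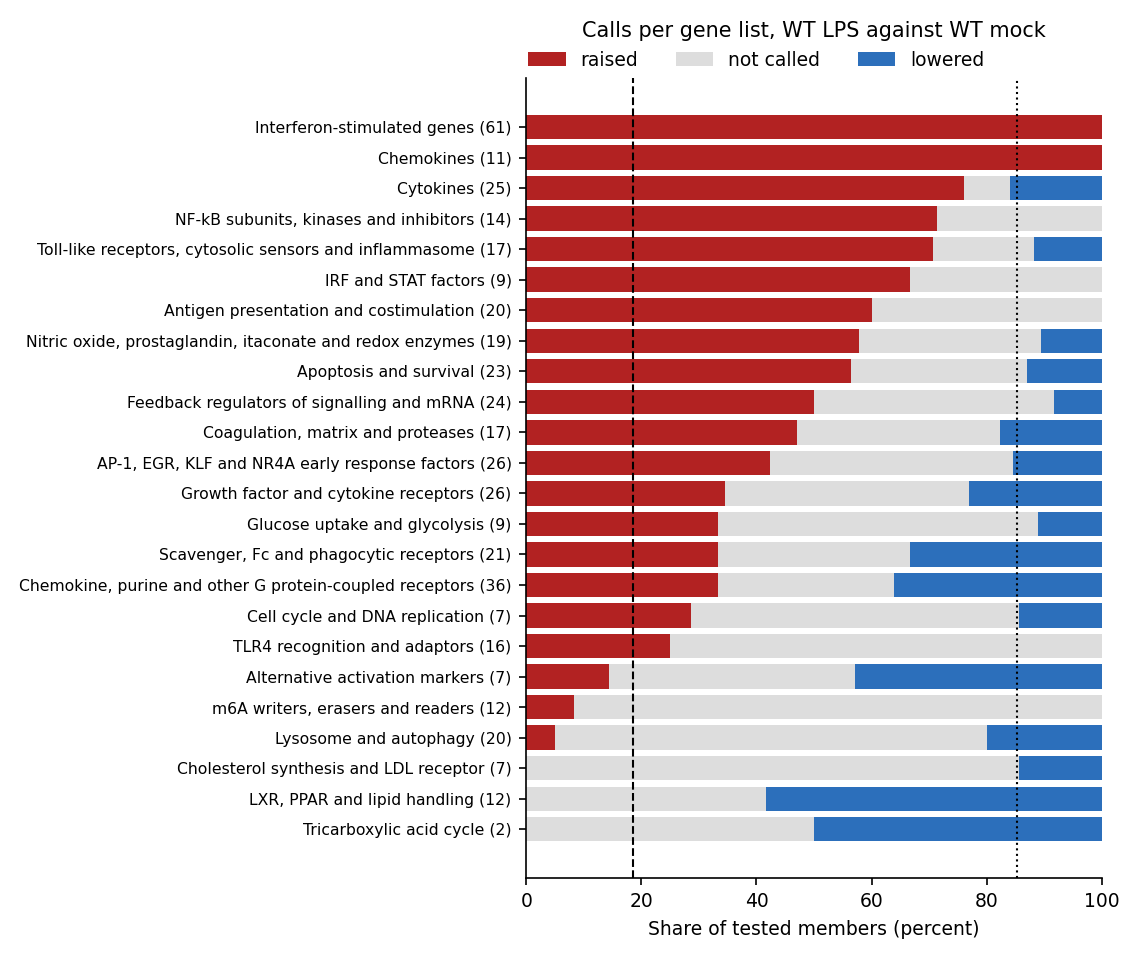
Shares of tested members raised (left), not called and lowered (right) in 24 gene lists, with the number tested in brackets. The dashed line marks the 18.5% of all genes that were raised and the dotted line leaves the 14.8% that were lowered to its right. ISGs and chemokines have raised members alone, whereas lipid handling has lowered members and no raised one.

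Lipid handling moved the other way. Of 12 tested genes of LXR, PPAR and lipid handling, 7 fell and 0 rose, 58.3% against 14.8% of all genes, and the median log2 fold change was −1.07. *Pparg*, a nuclear receptor of lipid uptake and alternative activation, had 4.97 and 6.87 CPM with LPS and 79.3 and 71.7 CPM in mock PMs (−3.68, SE 0.23, adjusted p = 8.01e-10). *Nceh1*, which hydrolyses cholesteryl esters, had 294 and 308 CPM against 1052 and 1061 CPM (−1.81, SE 0.10). The RXR gene *Rxra* stood at −1.36 (SE 0.13), lipoprotein lipase *Lpl* at −1.19 (SE 0.16, and −0.94 without WT mock replicate 2), the lysosomal cholesterol exporter *Npc1* at −1.10 (SE 0.14) and the cholesterol exporter *Abcg1* at −1.06 (SE 0.13). The remaining lowered gene of the list was *Fabp5*, a fatty acid-binding protein, which was at −0.96 without WT mock replicate 2. The exporter gene *Abca1* had 295 and 345 CPM against 210 and 199 CPM (0.64, SE 0.10) and was not called. Of 7 tested cholesterol synthesis genes *Dhcr7*, the last enzyme of the pathway, was the 1 called, with at most 3 reads in either LPS library and at least 31.2-fold lower. With upper-quartile scaling, and without WT LPS replicate 2, 3 of these genes were lowered, and with at least 10 reads in every library 0 were. *Abcd2*, which encodes a peroxisomal fatty acid transporter, was at least 13.4-fold lower on the same terms. *Arg1*, *Egr2* and *Pparg* were also the 3 lowered genes of the 7 tested alternative activation markers, and *Klf4* the 1 raised. These are 42.9% and 14.3%, against 14.8% and 18.5% of all genes. With upper-quartile scaling or without WT LPS replicate 1, 0 were raised.

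Glucose metabolism genes rose in 3 of 9 (33.3%) and fell in 1 (11.1%), against 18.5% and 14.8% of all genes. *Slc2a6*, a lysosomal hexose transporter gene, had 2692 and 2510 CPM against 177 and 177 CPM (log2 fold change 3.88, SE 0.11), hexokinase 2, *Hk2*, stood at 1.91 (SE 0.14) and *Hif1a*, the hypoxia factor, at 1.61 (SE 0.11, shared peak). *Pfkfb4*, a regulator of phosphofructokinase, stood at −1.29 (SE 0.13). Only 2 genes of the tricarboxylic acid cycle list were tested. *Idh1* (ENSMUSG00000025950, chr1:65197775-65218340), the cytosolic isocitrate dehydrogenase, had 155 and 168 CPM with LPS and 2070 and 2578 CPM in mock PMs (−3.85, SE 0.13, adjusted p = 2.97e-13).

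Lysosome and autophagy genes had both mock libraries above both LPS libraries in 15 of 20 tested genes against 39.7% of all genes, but 4 passed the fold threshold as lowered and 1 as raised. These are 20% and 5.00%, against 14.8% and 18.5% of all genes, and with upper-quartile scaling 8 were lowered. *Tfeb*, the transcription factor of lysosomal genes, had 37.0 and 31.4 CPM against 112 and 111 CPM (−1.70, SE 0.14), and subunits of the proton pump followed, with *Atp6v0d2* at −1.55 (SE 0.10) and *Atp6v1a* at −1.30 (SE 0.43), with 15 and 5 reads in the LPS and 35 and 28 in the mock libraries. The call of *Atp6v1a* was lost without WT LPS replicate 2 (−0.82) and without WT mock replicate 1 (−1.20, adjusted p = 0.0624). *Ctsc*, which activates granule proteases, rose to 401 and 421 CPM from 109 and 134 CPM (1.76, SE 0.11). The abundant *Ctsb* (−0.24, SE 0.13) and *Ctsd* (−0.94, SE 0.13) were not called.

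Coagulation, matrix and protease genes rose in 8 of 17 (47.1%) and fell in 3 (17.6%), against 18.5% and 14.8% of all genes. *Vcan*, the matrix proteoglycan versican, had 179 and 210 CPM against 3.07 and 7.01 CPM (log2 fold change 5.27, SE 0.24). *Cfb*, complement factor B, stood at 3.87 (SE 0.17, both peaks shared). Coagulation factor X, *F10*, had 7027 and 6225 CPM against 743 and 727 CPM (3.17, SE 0.12), while *Thbd*, which encodes the anticoagulant thrombomodulin, had 3.42 and 7.59 CPM against 42.7 and 33.1 CPM (−2.81, SE 0.32). *Mmp12*, macrophage elastase, stood at −2.22 (SE 0.23).

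Cell death and survival genes rose in 13 of 23 and fell in 3. Among all genes 18.5% rose and 14.8% fell, so the list's raised share was higher and its lowered share near that of all genes. *Mlkl*, the executor of necroptosis, had 82.0 and 82.8 CPM against 6.65 and 6.20 CPM (log2 fold change 3.67, SE 0.17). *Cflar*, which encodes the caspase-8 inhibitor cFLIP, stood at 3.35 (SE 0.10). *Bcl2* had at most 3 reads in either LPS library and was at least 6.60-fold lower. Of 54 cell cycle genes listed, 7 were tested. The cell cycle inhibitor *Cdkn1a* rose to 120 and 125 CPM from 15.6 and 16.7 CPM (2.92, SE 0.13), the proliferation marker *Mki67* stood at 1.78 (SE 0.22), and *Cdk2* at −1.29 (SE 0.35, adjusted p = 0.00488), a call lost without WT LPS replicate 1 (−0.86).

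Of 12 tested m6A regulators 1 rose (8.33%, against 18.5% of all genes), and with upper-quartile scaling 0 did. *Ythdf1*, a cytoplasmic m6A reader, had 319 and 342 CPM with LPS and 149 and 141 CPM in mock PMs (log2 fold change 1.19, SE 0.10, adjusted p = 4.82e-08, and 0.90 with that scaling). *Wtap*, a subunit of the writer complex, had 261 and 302 CPM against 159 and 160 CPM (0.82, SE 0.10) and stayed below the fold threshold. The median of the list was 0.12.

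The largest falls were found in genes of sugar transfer, transport along microtubules, receptors and transcription. *St6gal1* (ENSMUSG00000022885, chr16:23043490-23179098), the sialyltransferase that caps N-glycans, had 1.86 and 2.53 CPM with LPS and 81.6 and 76.3 CPM in mock PMs (log2 fold change −5.16, SE 0.25, adjusted p = 2.32e-11). The kinesin gene *Kif19* stood at −5.11 (SE 0.36), the endocytic adaptor *Hip1* at −4.81 (SE 0.34) and *Klc4*, a kinesin light chain, at −4.45 (SE 0.14). *Cd300lb* (ENSMUSG00000063193, chr11:114813607-114825212), an activating receptor of myeloid cells, had 96.9 and 92.9 CPM against 2058 and 2172 CPM (−4.48, SE 0.11, adjusted p = 1.95e-14). *Arrb1*, β-arrestin 1, stood at −3.87 (SE 0.18), and *Havcr2*, which encodes the checkpoint receptor TIM-3, at −3.80 (SE 0.52). The first 15 lowered genes also held *GALNT9* (−4.58, SE 0.31), *SGSH* (−4.01, SE 0.21, 1 of 4 peaks shared), *Kiaa0513* (−4.01, SE 0.20) and *TNS1* (−3.89, SE 0.18), named as in the table. By the rule of choice, the highest LPS library of all these genes was below the lowest mock library. *Kif19* and *Hip1* had 0.932 and 1.81 CPM and 0.932 and 2.53 CPM with LPS, so their folds rest on few reads.

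The peaks of called genes were also looked at singly. A gene's count sums its peaks in the same libraries, so agreement in direction is largely built in and does not check the call. Of 331 raised genes with at least 2 tested peaks of their own, all peaks pointed up in 328, 1020 of 1025 peaks. In the 166 lowered genes with as many peaks, 411 of 411 peaks pointed down. The median range of log2 fold changes among the peaks of a gene was 0.34 in raised and 0.28 in lowered genes. The 5′UTR held 3.15% of 1399 peaks in raised genes, 0.626% of 799 peaks in lowered genes and 2.23% of 3946 peaks in other tested genes. The 3′UTR held 17.5%, 23.5% and 14.6%, the stop codon region 30.4%, 36.0% and 33.3%, and the CDS 33.0%, 27.5% and 34.7%. No test was made on these shares.

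The IP libraries of the same PMs gave a further readout, which mixes transcript level and m6A capture, so the pair cannot be told apart. Of 4931 genes tested there, 407 (8.25%) were raised and 366 (7.42%) lowered by LPS. Of the 876 genes raised in input, 842 had a log2 fold change above 0 in IP and 390 passed the test as raised. Of the 702 lowered in input, 678 were below 0 and 324 were called lowered. None was called in the opposite direction. The median IP log2 fold changes were 1.36 and −1.21.

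Both LPS libraries lay above both mock libraries in IP in 757 of the 876 genes raised in input, against 31.7% of all genes, and below them in 626 of the 702 lowered genes, against 33.2%. In some of the most strongly raised genes, chosen after their values were seen, the IP library of WT mock replicate 1 stood apart from its replicate. *Il6* had 395 IP CPM in mock replicate 1 and 7.02 in mock replicate 2, against 277 and 121 IP CPM in the LPS libraries. *Il12a* had 410 and 4.95 IP CPM in the mock libraries and 245 and 117 with LPS, and *Cxcl2* had 4560 and 167 against 3710 and 1889. *Irf7* had 3296 and 196 in the mock libraries against 1890 and 745 with LPS. In *Tnf*, mock replicate 1 lay between the LPS libraries, with 9205 and 388 against 10938 and 7300 IP CPM. The groups overlapped in these 5 genes in IP but not in input. The chemokine genes *Cxcl10*, *Cxcl1*, *Cxcl3*, *Cxcl16*, *Ccl2*, *Ccl3*, *Ccl4*, *Ccl5* and *Ccl7* also had mock replicate 1 above both LPS libraries in IP. In *Cxcl10* it had 2500 IP CPM, against 1679 and 797 with LPS. *Ccl9* did not show this, with 60 IP CPM in mock replicate 1 against 177 and 181 with LPS. In *Cd300lb* both mock IP libraries lay above the LPS ones, with 1790 and 2245 IP CPM against 313 and 154. In *Idh1*, lowered in input, the groups overlapped in IP, with 565 and 187 IP CPM in the mock and 280 and 136 in the LPS libraries. Without WT mock replicate 1, 562 genes were raised and 340 lowered in IP, and the medians of the input-raised and input-lowered genes were 1.93 and −1.31. Without WT LPS replicate 2 the counts were 6 and 2, without WT LPS replicate 1 they were 174 and 116, and without WT mock replicate 2 they were 256 and 207. The input values hold no reads of these libraries, though the peaks that define the genes come from m6A capture.

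**Figure D4:**
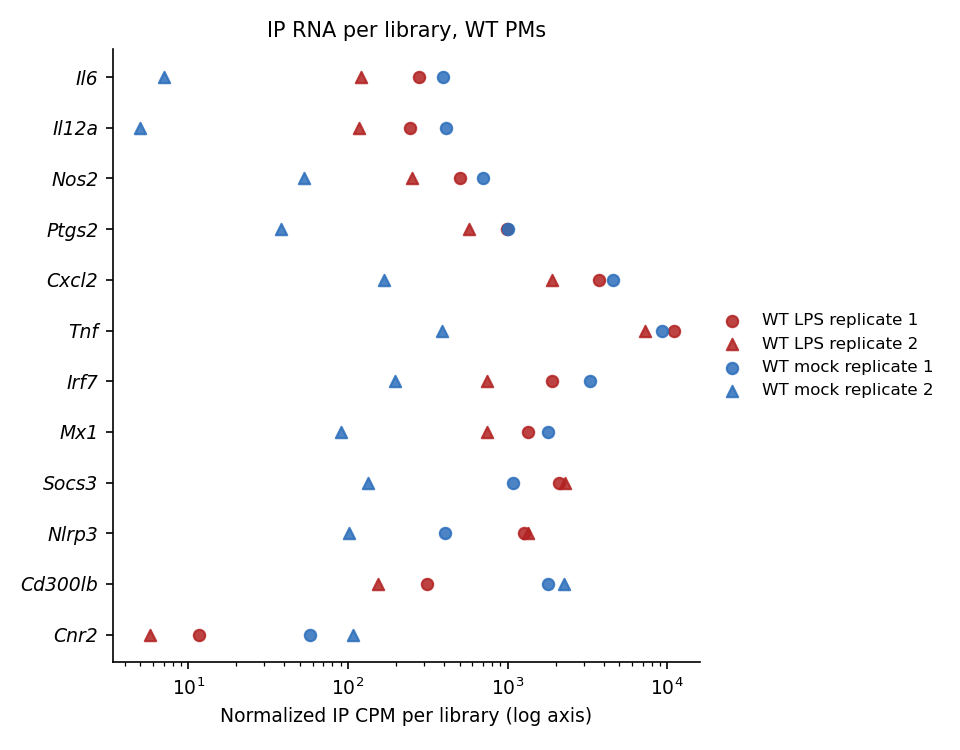
IP CPM of 12 genes in the 4 WT IP libraries on a log axis, circles for replicate 1 and triangles for replicate 2. In *Il6*, *Il12a*, *Nos2*, *Ptgs2*, *Cxcl2*, *Irf7* and *Mx1* mock replicate 1 lies above both LPS libraries, whereas in *Cd300lb* and *Cnr2* it lies with mock replicate 2, above the LPS libraries.

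Most of the response was also found in *Adap*-/- PMs, which were treated in the same way. Of the 876 genes raised in WT PMs, 732 were raised in *Adap*-/- PMs, and of the 702 lowered genes 492 were lowered there. Among all 4742 tested genes, 792 were raised and 583 lowered in *Adap*-/- PMs. The sign was opposite in 13 of the 1578 called genes. The difference between the 2 LPS responses had an adjusted p below 0.05 in 78 genes (1.64%), and in 602 at an unadjusted p below 0.05. In 61 of the 78 the response was higher in WT PMs. The count rested on single libraries, with 46 genes without WT LPS replicate 1, 40 without WT LPS replicate 2 and 127 without WT mock replicate 1. The rise was larger in WT PMs in 19 of 61 ISGs and smaller in 0, against 61 and 17 of all 4742 genes, and the median difference of log2 fold changes was 0.54 in ISGs and 0.02 in all genes. The difference had an adjusted p below 0.05 in 2 of 11 chemokines and in 0 of 25 cytokines.

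The mock level and the LPS level both entered these differences. *Irf7* had 12587 and 12395 CPM in WT and 10327 and 9072 CPM in *Adap*-/- PMs after LPS, and 415 and 392 CPM in WT and 888 and 887 CPM in *Adap*-/- mock PMs. Its log2 fold change was 4.95 in WT and 3.45 in *Adap*-/- PMs, a difference of 1.5 (adjusted p = 2.61e-04). *Ifit3b* had 955 and 874 CPM in WT and 427 and 310 CPM in *Adap*-/- PMs after LPS, and 2.30 and 2.96 CPM against 9.19 and 8.49 CPM in mock PMs, a difference of 3.04 (adjusted p = 3.50e-04). *Tnf* had log2 fold changes of 6.85 in WT and 6.80 in *Adap*-/- PMs, a difference of 0.05. For *Tnf* the adjusted p of the difference was 0.957, and *Il6*, at 9.79 against 11.09, had 0.644, which does not show that the genotypes respond alike.

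**Figure D5:**
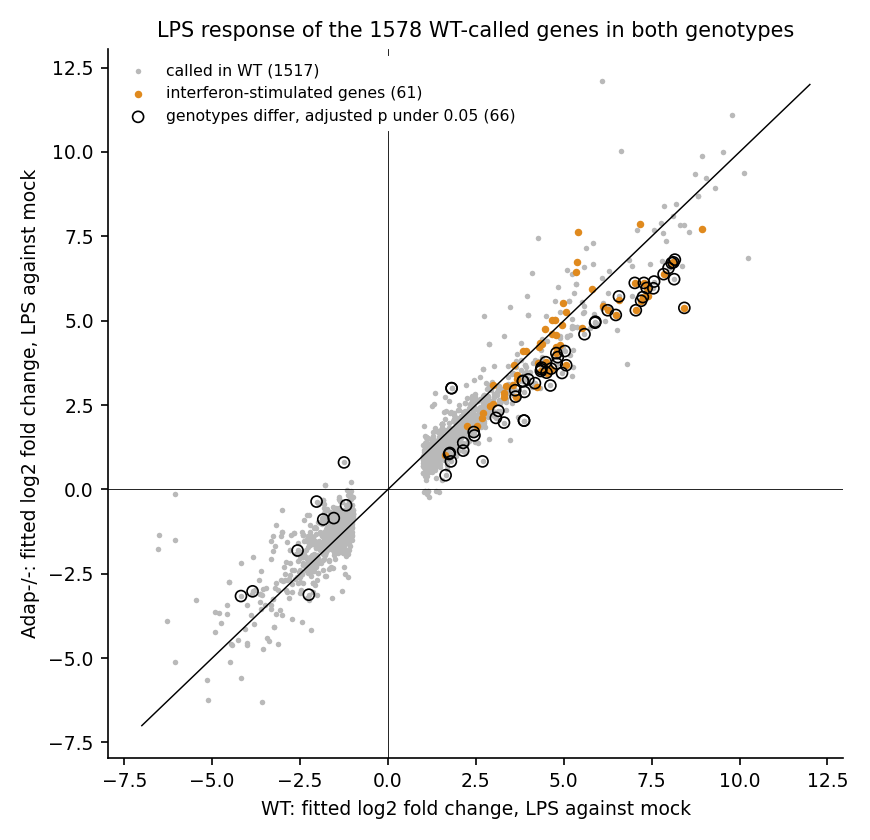
Fitted log2 fold changes (LPS against mock) of the 1578 genes called in WT PMs, in WT PMs on the x axis and in *Adap*-/- PMs on the y axis, with equal responses on the line. ISGs are coloured, and rings mark the 66 genes whose response differed between genotypes with an adjusted p below 0.05. Rings on the right lie mostly below the line, on the side of a larger rise in WT PMs. Fitted values of genes with at most 3 reads in a group depend on the fit and are not measured folds.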

How the data were processed

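Input and IP RNA of WT and *Adap*-/- PMs, mock-treated or treated with LPS, had been sequenced in 16 libraries. The authors deposited 1 table of read counts per m6A peak and library on GRCm39. The submitters' processing notes name Bowtie2 2.2.8, MACS2 2.1.2 and DiffBind 2.8, without their roles. The table has 8094 rows for 7069 distinct peaks, and 0 count columns lacked a sample. Peak counts were summed per gene, so a gene's count covers its peaks and not its whole transcript, and reads of the 925 peaks annotated to several genes count for each of them. Molecules were not marked, so PCR copies count as reads.

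Counts of the 8 input libraries were fitted with edgeR 4.0.16 (R 4.3.3) as 1 mean per group, with filterByExpr (minimum count 10), TMM scaling, the quasi-likelihood test and Benjamini-Hochberg adjustment. The residual degrees of freedom were 4 and the biological coefficient of variation was 8.82%. A gene was called at an adjusted p below 0.05 and a fold above 2. The difference between genotypes was the interaction in the same fit, and the 8 IP libraries were fitted alike. A gene with at most 3 reads in every library of the lower group has a lower bound against a floor of 3 reads per library in place of a fold. The fits were tested on simulated data. Alternatives were DESeq2 1.42.0, other scalings, filters and fold thresholds, a replicate block, the WT libraries alone, peaks of 1 gene alone, and leaving out each WT library.

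The genes and lists were chosen with earlier results of these data known. Of 745 names in 24 lists, 441 had a peak and 434 were tested. Genes were named as the 15 highest and 15 lowest called genes with a peak of their own and over 3 reads in the lower group, up to 5 bound genes per direction, up to 4 called and 3 other members per list, the genes the study follows, and the 5 highest per group. Names outside this rule were added with their values in view, and some genes within it are not reported here. Where the table gives a symbol of another species or one that several genes share, the mouse name of its description was used. Authors' comparisons and values were not used.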

Additional observations from a re-analysis of the deposited data

Results flagged for a closer look

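The genes below were picked out because their response to LPS differed between WT and *Adap*-/- PMs with an adjusted p below 0.05 in edgeR's interaction test, and each value is the log2 fold change in WT minus that in *Adap*-/- PMs. Among ISGs the difference was 3.04 for *Ifit3b*, 1.61 for *Ifit3*, 1.46 for *Cmpk2*, 1.39 for *Ifit2* and *Ifi205*, 1.36 for *Mx1*, 1.15 for *Rsad2* and 0.91 for *Isg15*. *Irf7*, the transcription factor of the type I interferon response, had 1.5. The interferon-inducible genes outside the list had 1.92 for *Ifi213*, 1.42 for *Ifi206* and 1.35 for *Ms4a4d*.

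Among receptors and sensors it was 1.32 for *Clec4e*, 1.07 for *Il15ra*, 1.02 for *Tlr3*, 0.95 for *Fpr1*, 0.85 for *Cd40* and 0.81 for *Tlr2*. The chemokine genes *Ccl5* and *Cxcl16* had 0.95 and 0.68, the NF-kB regulator *Nfkbiz* 0.76, the itaconate enzyme *Acod1* 0.80, the hexose transporter *Slc2a6* 0.99 and complement factor B, *Cfb*, 1.83 on shared peaks. In *Idh1* (−0.83) the fall was deeper in WT PMs. Mock levels of *Irf7*, *Mx1* and *Ifit3b* were higher in *Adap*-/- than in WT PMs, with 47.8 and 59.0 CPM against 29.7 and 41.5 CPM for *Mx1*.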

How the results depend on the processing

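The counts of 876 raised and 702 lowered genes stayed within 1.5 times under DESeq2, RLE and upper-quartile scaling and both other filters. They also did so with the 4 WT libraries alone and peaks of 1 gene alone. With upper-quartile scaling they were 710 and 1032, so that more genes were lowered than raised. Scaling by total counts gave 430 and 2631, with the raised share of all calls going from 55.5% to 14%, and moved the median of all genes by −1.08. In the lists it moved calls towards lower, as in m6A regulators (0 raised and 6 lowered), lysosome and autophagy (0 and 17), TLR4 recognition (1 and 5), early response factors (3 and 10) and feedback regulators (6 and 10). Upper-quartile scaling moved the median by −0.29, and gave 2 lowered genes each in the tricarboxylic acid and cell cycle lists and 1 in the IRF and STAT list. Of growth factor and cytokine receptors 3 were lowered with at least 10 reads in every library, and of G protein-coupled receptors 8 with peaks of 1 gene alone. At a fold above 1.5, 1087 genes were lowered, and with any fold 1434 were raised and 1372 lowered. Leaving out 1 WT library in turn gave 861 to 871 raised and 679 to 707 lowered genes. With the replicate block they were 877 and 702, and 79 genotype differences. Correlations of deviations between same-numbered libraries ran from −0.0776 to 0.164, so the numbers were not taken as pairs.

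The 78 genotype differences ranged from 40 to 127 when 1 WT library was left out. In IP, the counts of 407 and 366 ranged from 6 to 562 raised and from 2 to 340 lowered. The cause was not tested.

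Of 152 called genes named, 128 kept their call and direction under every alternative run for them. Uncalled genes turned sign under total counts, with −0.86 for *Tgfb1* (−0.07 with upper-quartile scaling), −0.50 for *Atf3*, −0.44 for *Abca1*, −0.26 for *Wtap*, −0.62 for *Il1r1*, and −0.55 for *Fyb1* and *Pdgfra*. Without 1 WT library, *Pdgfra* ran from −0.00 to 0.94. *Cd68*, close to 0, had 0.02 with DESeq2, RLE scaling and without WT LPS replicate 1, and 0.04 without WT mock replicate 1 against −0.09 without WT mock replicate 2. Depth limits genes near 3 reads, 0.788 CPM in mock and 1.01 CPM in LPS libraries.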

Other observations

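Of 20 KEGG pathways described, which overlap with the lists, the TNF pathway had the highest raised share. In it 45 of 67 tested genes were raised and 1 lowered, in the NOD-like receptor pathway 43 of 84 and 9, in cytokine–cytokine receptor interaction 45 of 85 and 11, in antigen processing and presentation 14 of 33 and 2, and in the phagosome 21 of 60 and 11, against 18.5% and 14.8% of all genes. MAPK signalling, with 21.6% and 15.7%, and endocytosis, with 22.1% and 11.6%, were closer to all genes. Of 27 tested ribosome genes 0 were called, of 40 spliceosome genes 2 were raised and 0 lowered, and of 33 oxidative phosphorylation genes 1 was raised and 5 lowered, the latter 15.2%. In the cell cycle 12.8% were raised and 15.4% lowered, and in ubiquitin-mediated proteolysis 19.6% and 5.88%. In the lysosome pathway 2 of 62 genes were raised and 15 lowered, and the median log2 fold change was −0.53.

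In 18 of 1308 genes with several peaks, the peaks responded to LPS unlike each other, with an adjusted p below 0.05 in edgeR's test for unlike features of a gene, a test chosen after the data were seen. *Tsc22d1*, which encodes a leucine zipper protein in long and short forms, is an example. Its peak at chr14:76653850-76653900 (GRCm39, CDS) had 0.418 and 0.480 CPM with LPS and 9.88 and 10.1 CPM in mock PMs. With 1 read in either LPS library it was at least 7.43-fold lower, while its 3′UTR peak at chr14:76744539-76744764 had 267 and 181 CPM against 29.3 and 47.5 CPM, a log2 fold change of 2.56. In *Cflar* the peak over the stop codon had a log2 fold change of 3.50 and the first peak 0.66. In *Ccl4* the values were 3.29 for the 5′ and 5.76 for the 3′ peak, in *Tbc1d1* 2.81 and 0.71. *Spi1*, the PU.1 gene, had −1.05 in its first peak and 0.28 in the peak over the stop codon. *Abcg1* had −1.04 over the stop codon and −3.42 further into the 3′UTR.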
